A study of Mus musculus with 16 samples.

Results

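Gene expression was compared between 2 Foxp3 reporter lines in conventional CD4+ T cells (Tconv), sorted as GFP-negative cells. The comparison took the 8 arrays labelled Tconv of a series of 16. The other 8, from GFP-positive regulatory T cells (Treg) of the same lines, served as a second cell type. In the fusion line GFP is joined to the Foxp3 protein (Foxp3-GFP in the labels). In the ires line GFP is translated separately from the Foxp3 transcript, through an internal ribosome entry site (Foxp3-ires-GFP). Each line was present on the background labelled B6 and on the background labelled NOD, the non-obese diabetic strain, which develops autoimmune diabetes. Each of the 4 Tconv groups (B6 fusion, B6 ires, NOD fusion, NOD ires) held 2 arrays, so each line had 4. All mice were males aged 6 weeks, and the cells were CD3+ CD4+ spleen cells that were sorted 2 times for purity before RNA extraction. All 4 groups carry GFP at the Foxp3 locus, and no mice without a reporter were measured. Whether the 2 arrays of a group came from separate mice is not said in the labels, so the p-values rest on a spread between arrays that may be a technical one.

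Foxp3 is the transcription factor that sets the identity of regulatory T cells. Tconv are the CD4+ T cells that lack it and give rise to helper and memory cells. The reporter is read from the Foxp3 locus, so the GFP-negative gate selects cells in which that locus is silent or nearly so. The question was which genes differed between the lines in cells chosen for the absence of the reporter, over both backgrounds and within each.

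The arrays' levels of the defining genes were those of their labels. Log2 intensity of Cd4, the co-receptor of helper T cells, lay between 11.31 and 11.72 on the 8 Tconv arrays. Foxp3 lay between 7.01 and 8.18 there, against 11.37 to 12.16 on the Treg arrays. The median intensity of a Tconv array was between 86.7 and 97.1. Over the 12472 genes tested below, the log2 differences between the 2 arrays of a group had an SD of 0.19 to 0.24. The summed intensity of 15 B cell and plasma cell markers was 1152 on NOD fusion array 1 and between 709.9 and 839.6 on the other 7. That array was also the highest for 15 markers of dendritic cells and MHC class II (1825 against 1134 to 1440), with Cd74, the class II invariant chain, at 8.27 against 5.81 to 6.46 elsewhere. On NOD fusion array 2 the 8 Treg markers summed to 2179, against 1223 to 1747 on the other 7 Tconv arrays. In sorted cells measured in bulk, fewer cells of a type and less RNA per cell cannot be told apart.

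Over both backgrounds, no gene passed the test between the lines. The 8 arrays were fitted in limma with background as a blocking factor, and 12472 genes were tested, those with a log2 intensity above 6.05 on at least 2 of the 8 arrays. At an adjusted p of 0.05, 0 genes were called (0%). At an unadjusted p under 0.05 there were 408 (3.27%), of which 212 were higher and 196 lower in the fusion line. In this fit a difference that is present in 1 background only enters the line effect in part and also adds to the scatter. With a mean for each of the 4 groups instead, 3 genes were called on the average of both backgrounds. These were Ctse, Desi1 and Kcnma1, and each of them was called in a single background. Kcnma1 passed the filter on the NOD fusion arrays alone, where it is high, so its place in these counts is a description.

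In B6, 3 genes were called (0.0241% of those tested), and in NOD 5 were (0.0401%), with no gene in common. In B6 Ctse and Snrpe rose and Pxylp1 fell in the fusion line. In NOD H2-Q5 and Zfp979 rose, Desi1 and Vat1 fell, and Kcnma1 was called as higher from the 2 NOD fusion arrays alone. At an unadjusted p under 0.05 there were 199 genes in B6 and 373 in NOD. For Ctse the difference itself differed between the backgrounds (0.016% of genes called in that test). Kcnma1 was called there as well, but only the NOD fusion arrays measured it above the filter, so its fitted values are given as a description.

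**Figure D1:**
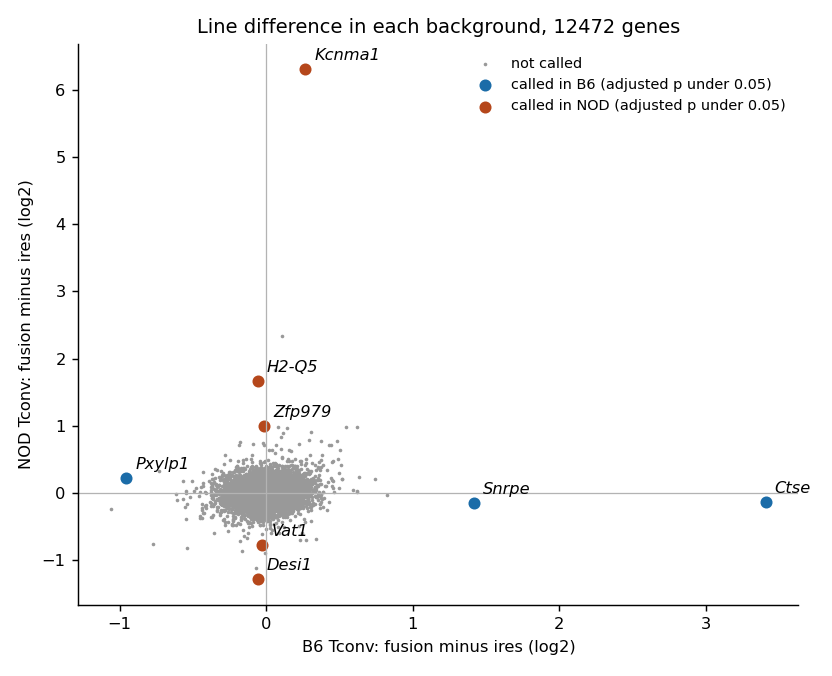
Difference between the lines (fusion minus ires, log2) in B6 Tconv (x axis) and in NOD Tconv (y axis) for 12472 genes, 1 point a gene, with the 3 genes called in B6 in blue and the 5 called in NOD in red. The called genes lie along 1 axis or the other: Ctse is at 3.41 in B6 and -0.14 in NOD, and Kcnma1, which passed the filter on the NOD fusion arrays alone, at a fitted 0.27 in B6 and 6.30 in NOD.

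Ctse encodes cathepsin E, an endosomal aspartic protease of immune cells (probe set 10349648, chromosome 1). Its log2 values were 11.96 and 11.89 on the B6 fusion arrays and 8.70 and 8.33 on the B6 ires arrays. In NOD they were 9.08 and 8.63 in fusion and 9.06 and 8.93 in ires. The 2 B6 fusion arrays thus stood apart from the other 6, which lay between 8.33 and 9.08. In B6 Ctse rose by 3.41 ± 0.16 (SE), or 10.6-fold, with an adjusted p of 2.27e-06. The difference in NOD was -0.14 ± 0.16, and the difference between the backgrounds was -3.55 ± 0.23 (adjusted p 3.44e-05). Treg of the same lines gave 3.20 ± 0.16 in B6 (adjusted p 1.6e-09, where 0.265% of genes were called) and -0.17 in NOD.

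Snrpe encodes a core protein of the small nuclear ribonucleoproteins that carry out splicing (probe set 10357808), and it lies on chromosome 1 as Ctse does. The B6 ires arrays stood apart here, at 9.30 and 9.85. B6 fusion had 10.96 and 11.01, and the 4 NOD arrays lay between 10.87 and 11.16. In B6 Snrpe rose by 1.41 ± 0.16, or 2.67-fold (adjusted p 0.0128), and the NOD difference was -0.15 ± 0.16. B6 Treg gave 1.40 ± 0.17 (adjusted p 0.000235). Pxylp1, a phosphatase that acts in the synthesis of glycosaminoglycan chains (probe set 10595840, chromosome 9), was lowest on the B6 fusion arrays, at 6.39 and 6.48. B6 ires had 7.36 and 7.42, and the NOD arrays lay between 7.41 and 7.77. In B6 Pxylp1 fell by 0.95 ± 0.12 (adjusted p 0.0201), and B6 Treg gave -0.54 with an adjusted p of 0.125. The Snrpe call ended when any 1 of 5 arrays was left out (B6 fusion 1 or 2, NOD fusion 1 or 2, B6 ires 1), with adjusted p of 0.0595 to 0.128. The Pxylp1 call ended without any 1 of 6 (those 5 and B6 ires 2), with adjusted p of 0.0858 to 0.402. The Ctse call held without each array.

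**Figure D2:**
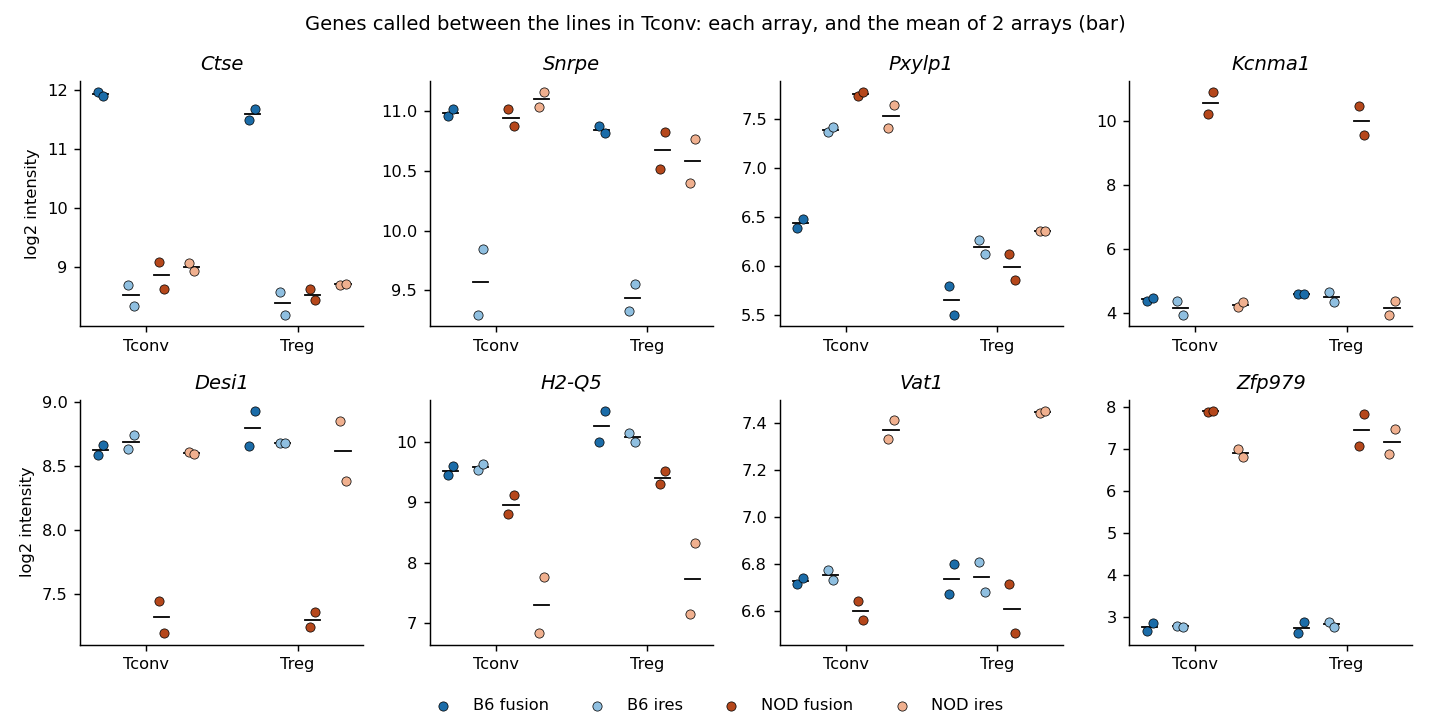
Log2 intensity of the 8 genes called between the lines in Tconv on each array of Tconv and Treg, 1 point an array, coloured by background and line, with a bar at the mean of the 2 arrays of a group. For Ctse the 2 B6 fusion arrays stand at 11.96 and 11.89 above all other Tconv arrays, and for Kcnma1 the 2 NOD fusion arrays stand at 10.21 and 10.89.

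Since Ctse and Snrpe lie on one chromosome, the tested genes between and around them were examined, a stretch chosen after their values were seen. From Cd55 to Rnpep, in the gene order of the RefSeq annotation of GRCm38.p6, there were 51 tested genes. At both ends of this stretch stood genes with large B6 differences. Cd55, complement decay-accelerating factor, had 8.75 and 8.86 in B6 fusion against 7.76 and 8.36 in B6 ires. Its difference was 0.74 ± 0.17 in B6 (adjusted p 0.828) and 0.21 ± 0.17 in NOD. In B6 Treg it rose by 1.84 (adjusted p 2.77e-05). Rnpep, an aminopeptidase chosen after its values were seen that removes basic residues, had 7.01 and 7.37 against 7.97 and 8.52, a B6 difference of -1.06 ± 0.19 (adjusted p 0.316). The other 47 genes lay between -0.35 and 0.39 in B6. Without the 4 genes that drew attention to the stretch, 5 of the 47 had an unadjusted p under 0.05 in B6 (10.6%, against 1.60% of all genes), and of all 51, 1 did in NOD. The stretch was chosen on these values, so the share is a description. Around Pxylp1 on chromosome 9, none of the 20 nearest tested genes had such a p in B6.

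**Figure D3:**
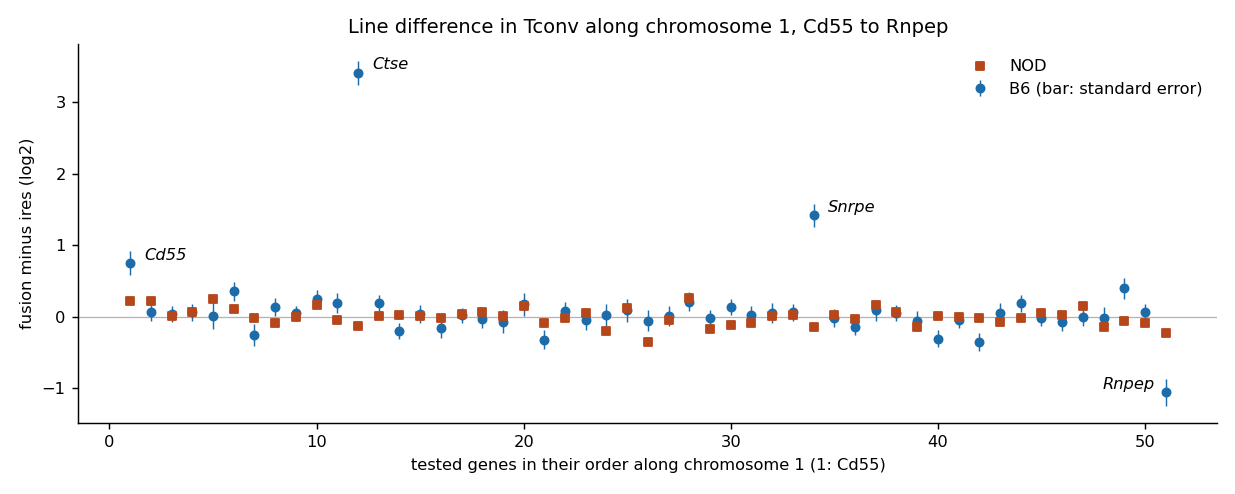
Difference between the lines (fusion minus ires, log2) of 51 tested genes in their order along chromosome 1, from Cd55 to Rnpep, in B6 (circles, with the standard error) and NOD (squares). In B6 Ctse stands at 3.41, Snrpe at 1.41, Cd55 at 0.74 and Rnpep at -1.06, while the other 47 genes lie between -0.35 and 0.39.

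Kcnma1 encodes the pore subunit of a calcium-activated potassium channel of large conductance. On the probe set used (10582545) its log2 values were 10.21 and 10.89 on the NOD fusion arrays. The NOD ires arrays had 4.17 and 4.33, and the 4 B6 arrays lay between 3.93 and 4.47. Of the 8 arrays, the 2 NOD fusion arrays alone passed the filter, and the gene was tested through them. The other 6 lie under the filter of 6.05 and give only a bound. With the filter in place of their level, the NOD fusion arrays, at a mean of 10.55, were at least 22.7-fold higher than the NOD ires arrays, and in NOD Treg at least 15.5-fold higher. The gene is in the counts of calls above, but no p is given for it, because the group where the signal is high is the one that admitted it. A second probe set annotated to Kcnma1 (10418053) had a mean of 4.64 and a NOD difference of -0.04. The gene lies on chromosome 14, whereas the 20 placed probe sets with the nearest identifiers to the first all lie on chromosome 8. The first probe set's target was not checked here, and its values are those of that probe set rather than a measured level of the channel's transcript.

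Desi1, an isopeptidase that removes the SUMO modifier from proteins (probe set 10430804, chromosome 15), was lowest on the NOD fusion arrays, at 7.45 and 7.20. The other 6 arrays lay between 8.59 and 8.74. In NOD Desi1 fell by 1.28 ± 0.12 (adjusted p 0.00204), and NOD Treg gave -1.32 (adjusted p 0.000155, where 0.0882% of genes were called). Vat1, a membrane protein of vesicles and mitochondria (probe set 10391454, chromosome 11), stood apart on the NOD ires arrays, at 7.33 and 7.41. The other 6 arrays lay between 6.56 and 6.77. In NOD Vat1 fell by 0.77 ± 0.11 (adjusted p 0.0435), and in NOD Treg by 0.84 ± 0.11 (adjusted p 0.00185).

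Zfp979 encodes a zinc finger protein of a family with many similar members in its cluster on chromosome 4, so its signal may be shared with them (probe set 10518358). Its log2 values were 7.89 and 7.91 in NOD fusion and 7.0 and 6.82 in NOD ires, whereas the 4 B6 arrays lay between 2.66 and 2.86, so the gene passed the filter through the NOD arrays alone. In NOD Zfp979 rose by 0.99 ± 0.12 (adjusted p 0.0163), and NOD Treg gave 0.28 ± 0.20. The Desi1 call held when each array was left out. The Vat1 call ended without any 1 of the 8 (adjusted p 0.0762 to 0.75), and the Zfp979 call without NOD fusion 1 or 2 or NOD ires 2 (adjusted p 0.0734 to 0.252). Kcnma1, given above only as a bound in both cell types, is left out here. Of the other called genes, Snrpe, Ctse, Desi1, Vat1 and H2-Q5 were also called in Treg of the same background. The labels number the arrays of both cell types alike, and the 2 cell types may come from the same mice, so Treg is not an independent repeat.

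The last called gene, H2-Q5, belongs to the MHC class I genes. Class I molecules carry peptides from inside the cell to its surface for CD8 T cells. Their heavy chains pair with beta-2 microglobulin (B2m). The peptides are cut by the immunoproteasome (Psmb8, Psmb9, Psmb10), pumped into the endoplasmic reticulum by Tap1 and Tap2 and loaded by tapasin and calreticulin, and Nlrc5 is the transactivator of the class I genes. Of 29 listed genes of this machinery, 21 were tested, and the heavy chains H2-K1 and H2-D1 were not analysed here. In NOD 20 of the 21 were higher in the fusion line, with a median difference of 0.29, while 49.7% of all genes were. Of the 21, 1 was called and 10 had an unadjusted p under 0.05 on the higher side (1.52% of all genes did). Both NOD fusion arrays were above both NOD ires arrays for 13 of the 21, against 13.2% of all genes. In B6 the median was 0.06 and 18 of 21 were above 0 (51.9% of all genes), but no member was called and 0 had an unadjusted p under 0.05 on the higher side (0.649% of all genes). That median was 0.03 without B6 ires array 1, with 11 of 21 above 0, and 0.14 without B6 ires array 2. Whether the list's difference differed between the backgrounds was not tested for the list as a whole.

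The promoter is where Nlrc5 and interferon-driven factors act. H2-Q5, the called member, and H2-T10 also had large NOD differences, but the promoter set used held no window for them. The promoters of 4 other members with large NOD differences are shown, chosen after their values were seen. A shared cause of these differences was not tested. Each promoter is a window of 300 bases around the gene's start in the RefSeq annotation of GRCm38.p6, 5′ to 3′ on the gene's strand. The windows come from the B6-type reference and not from NOD. They are Tap1 (chr17:34187306-34187605, plus strand), H2-Q4 (chr17:35379367-35379666, plus strand), H2-M3 (chr17:37269984-37270283, plus strand) and B2m (chr2:122147437-122147736, plus strand). Capitals mark matches on either strand to the interferon-stimulated response element (GAAA, any 2 bases, GAAA) and to the gamma-activated sequence (TTCNNNGAA). They also mark TGACG, the core of the cyclic AMP response element, and a single fixed form of the NF-kappa-B site. Other forms of these elements were not searched, so a window without a marked match may hold another form.
Tap1: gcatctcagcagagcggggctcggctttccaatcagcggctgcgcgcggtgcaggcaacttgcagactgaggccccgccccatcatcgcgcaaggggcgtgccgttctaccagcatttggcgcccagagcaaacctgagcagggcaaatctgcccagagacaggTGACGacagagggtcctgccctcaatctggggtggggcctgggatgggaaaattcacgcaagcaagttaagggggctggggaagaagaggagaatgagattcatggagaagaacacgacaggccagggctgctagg
H2-Q4: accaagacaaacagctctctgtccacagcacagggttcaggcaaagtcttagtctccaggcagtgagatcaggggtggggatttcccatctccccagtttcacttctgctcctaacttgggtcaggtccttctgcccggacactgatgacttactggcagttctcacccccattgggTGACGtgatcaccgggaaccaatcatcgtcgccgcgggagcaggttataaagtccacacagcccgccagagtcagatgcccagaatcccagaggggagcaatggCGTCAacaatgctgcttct
H2-M3: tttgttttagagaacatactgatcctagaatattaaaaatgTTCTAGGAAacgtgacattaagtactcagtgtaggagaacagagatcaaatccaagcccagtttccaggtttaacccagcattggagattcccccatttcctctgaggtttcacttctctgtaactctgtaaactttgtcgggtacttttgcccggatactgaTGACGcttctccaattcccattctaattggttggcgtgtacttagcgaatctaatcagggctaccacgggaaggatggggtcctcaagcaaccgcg
B2m: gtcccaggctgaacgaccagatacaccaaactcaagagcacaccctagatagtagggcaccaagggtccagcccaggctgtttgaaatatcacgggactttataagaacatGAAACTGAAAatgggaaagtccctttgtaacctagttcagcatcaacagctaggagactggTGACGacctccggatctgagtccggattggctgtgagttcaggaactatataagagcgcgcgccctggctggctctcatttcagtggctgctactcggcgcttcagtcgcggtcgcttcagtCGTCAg

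All 4 windows hold TGACG, which is present in 20.8% of 32851 promoter windows of the same length. The B2m window holds the searched form of the interferon-stimulated response element (3.44% of all). The H2-M3 window holds the searched form of the gamma-activated sequence (8.30% of all). Whether the windows hold other forms of these 2 elements was not tested. None of the 4 holds the fixed form of the NF-kappa-B site (0.107% of all), and whether they hold other forms was not tested. Over the 15 tested members with a window, TGACG was found in 8 and the searched form of the interferon-stimulated response element in 3. The searched form of the gamma-activated sequence was found in 2 and the fixed form of the NF-kappa-B site in 0. Over all 22 list members with a window, tested or not, the counts were 12, 5, 2 and 4 in the same order. The 4 with the fixed form of the NF-kappa-B site were H2-K1, H2-D1, H2-Q6 and H2-Q7. The Tap1 and Psmb9 genes are divergent neighbours, and their windows share 275 of 300 bases. A match is a run of letters and not a measured binding site.

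Among the heavy chains, H2-Q5 (probe set 10444821, chromosome 17), a class I-like gene of the Q region, had 8.80 and 9.13 in NOD fusion and 6.83 and 7.76 in NOD ires. The 4 B6 arrays lay between 9.45 and 9.63, above all NOD arrays. In NOD H2-Q5 rose by 1.67 ± 0.24, or 3.18-fold (adjusted p 0.0435), and NOD Treg gave 1.67 ± 0.29 (adjusted p 0.0252). H2-Q4, of the same region, had 10.91 and 11.08 in NOD fusion, 7.87 and 9.45 in NOD ires and 10.94 to 11.16 in B6. Its NOD difference was 2.34 ± 0.35 (adjusted p 0.0558). For H2-Q4 the NOD fusion arrays were therefore at the B6 level and the NOD ires arrays below it. H2-T10, a class I-like gene recognised by gamma-delta T cells, had 10.12 and 10.23 in NOD fusion, 7.77 and 8.92 in NOD ires and 9.13 to 9.47 in B6. Its NOD difference was 1.83 ± 0.28 (adjusted p 0.0558). The members named from here on were chosen after their values were seen. H2-M3, which presents formylated peptides of bacteria, had 8.44 and 8.60 in NOD fusion against 7.68 and 7.86 in NOD ires, a difference of 0.75 ± 0.12 (adjusted p 0.0686). Near-identical copies among the Q and T region genes can share probes, and sequence differences between the strains under the probes were not examined.

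In the peptide machinery, Tap1 had 10.25 and 10.40 in NOD fusion, 9.35 and 9.64 in NOD ires and 10.26 to 10.46 in B6. Its NOD difference was 0.83 ± 0.13 (adjusted p 0.0612), against 0.10 ± 0.13 in B6. Psmb9 had 10.06 and 10.05 against 9.39 and 9.43, a NOD difference of 0.64 ± 0.12 (adjusted p 0.276). B2m had 13.12 and 13.10 against 12.14 and 12.77, and its NOD difference was 0.66 ± 0.17. The NOD difference was 0.44 ± 0.14 for Psmb8, 0.29 ± 0.12 for Tap2 and 0.40 ± 0.14 for Nlrc5. Each of these genes had both NOD fusion arrays above both NOD ires arrays, as 13.2% of all genes did. The same held for all 19 probe sets annotated to Nlrc5, whose NOD differences ran from 0.27 to 0.60. In B6 their differences ran from 0.03 to 0.23. These probe sets read 1 gene on the same arrays and are not repeats of the result. The chaperones of loading lay near 0, with Calr (calreticulin) at 0.02, Pdia3 at -0.01, Canx (calnexin) at 0.07 and Tapbp (tapasin) at 0.03.

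The 2 NOD ires arrays were the low ones for this list. The mean log2 level of the 21 genes was 9.51 and 9.74 there, against 10.05 to 10.20 on the other 6 arrays. In Treg the NOD ires arrays were again the lowest, at 9.56 and 9.89 against 10.28 to 10.50 on the other 6. In NOD Treg the fusion line was higher by 0.88 ± 0.13 for Tap1 (adjusted p 0.00422), by 0.97 ± 0.13 for H2-M3 (adjusted p 0.00185), by 0.80 ± 0.13 for Psmb9 (adjusted p 0.00894) and by 1.89 ± 0.34 for H2-T10 (adjusted p 0.0325). The list's NOD median in Tconv ran from 0.27 to 0.29 when each of the 4 NOD arrays was left out, with 0.27 without NOD fusion array 1, the array with more B cell and class II signal. The H2-Q5 call ended without NOD fusion 1 or 2 or B6 ires 1 or 2 (adjusted p 0.146 to 0.786). Without NOD ires array 2 the called genes numbered 11, among them H2-Q4, H2-T10, Tap1 and B2m.

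**Figure D4:**
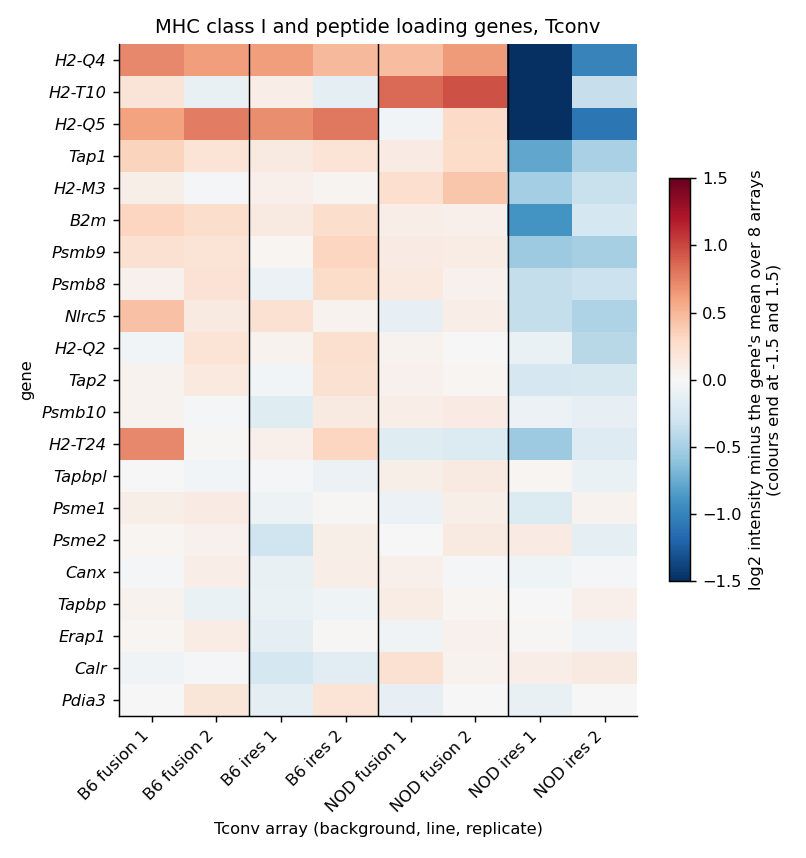
Log2 intensity of 21 MHC class I and peptide loading genes (rows, ordered by their NOD difference) on the 8 Tconv arrays (columns), each minus the gene's mean over the 8 arrays, in red above and blue below the mean. The upper rows are blue on the 2 NOD ires arrays, as for Tap1 at 9.35 and 9.64 against 10.25 to 10.46 on the other arrays.

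Interferon response genes are switched on in nearly all cells by type I and type II interferons and include antiviral effectors and GTPases. Of 42 listed genes 35 were tested. All 35 were higher in the fusion line over both backgrounds, where 50.4% of all genes were, with a median difference of 0.30. No member was called, and 11 had an unadjusted p under 0.05 on the higher side (1.70% of all genes did). In NOD the median was 0.34, and for 27 of the 35 both fusion arrays were above both ires arrays (13.2% of all genes). In B6 the median was 0.27, but the arrays of a group did not hold together. The mean level of the list was 9.19 and 8.35 on the B6 fusion arrays and 8.28 and 8.71 on the B6 ires arrays. In NOD it was 8.53 and 8.65 in fusion and 8.09 and 8.27 in ires. Without B6 fusion array 1 the B6 median was -0.15, and without B6 fusion array 2 it was 0.67. The median over both backgrounds was 0.19 and 0.44 in these fits, and the NOD median ran from 0.30 to 0.44 when each NOD array was left out. In Treg the list showed the same B6 fusion pattern, with 9.32 on array 1 and 8.57 on array 2.

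Oasl2, an antiviral protein of the oligoadenylate synthetase family, had the largest difference over both backgrounds, 0.80 ± 0.27 (adjusted p 0.999). Its values were 9.09 and 7.55 in B6 fusion, 7.44 and 7.97 in B6 ires, 7.87 and 8.26 in NOD fusion and 6.75 and 7.42 in NOD ires. B6 fusion array 1 was thus the highest of the 8, and the B6 groups overlapped. Ifit3, which binds viral RNA with its partner Ifit proteins, was also highest on B6 fusion array 1, with 8.40 and 6.24, 6.30 and 7.24, 6.69 and 6.85, and 5.72 and 5.85 on the same groups in turn. Its difference was 0.77 ± 0.35. Gbp4, an interferon-induced GTPase chosen after its values were seen, differed by 0.47 ± 0.13 and did not overlap between the lines in either background. It had 10.48 and 9.99 against 9.58 and 9.97 in B6, and 10.01 and 10.39 against 9.76 and 9.69 in NOD. Nlrc5 and several class I genes are known interferon targets, so the 2 lists are not independent descriptions of the arrays.

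**Figure D5:**
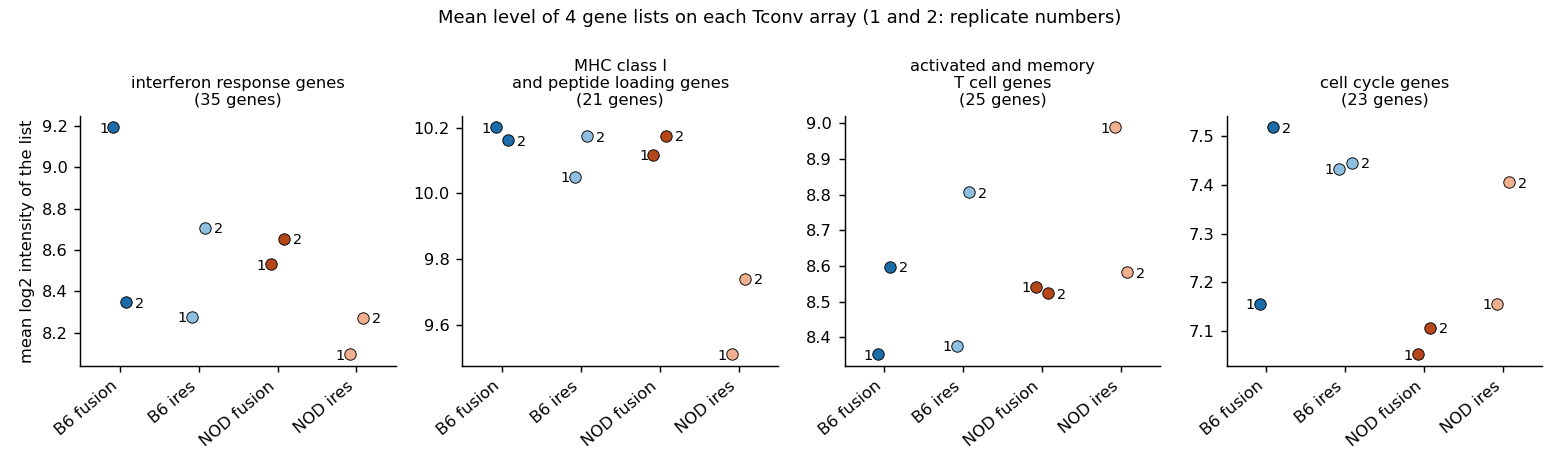
Mean log2 intensity of 4 gene lists on each of the 8 Tconv arrays, 1 point an array with its replicate number, by group. For interferon response genes B6 fusion array 1 is at 9.19 and array 2 at 8.35, and for class I genes the 2 NOD ires arrays are at 9.51 and 9.74 below the other 6.

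Genes of activated and memory T cells mark cells that have met antigen. Over both backgrounds the median difference of the list was -0.21, and 4 of 25 members were above 0 (50.4% of all genes). None was called, and 7 had an unadjusted p under 0.05 on the lower side (1.57% of all genes did). In NOD the median was -0.28, with both fusion arrays below both ires arrays for 13 of 25 (16.1% of all genes) and 6 with an unadjusted p under 0.05 on the lower side (1.47% of all genes). In B6 the median was -0.12, with 8 of 25 above 0. Anxa1, annexin A1, had 5.21 and 4.94 in B6 fusion, 5.55 and 5.68 in B6 ires, 5.69 and 5.82 in NOD fusion and 6.93 and 6.23 in NOD ires. Only the 2 NOD ires arrays are above the filter of 6.05, so Anxa1 entered the test through the group where it is high. Its fitted difference of -0.68 ± 0.14 is a description. Anxa1 is counted in the 7 and the 13 above, so those counts include a member admitted in this way. Cxcr6, a chemokine receptor of tissue-homing T cells, differed by -0.51 ± 0.26, and NOD ires array 1 was the highest at 9.13 against 7.02 to 7.98. Lgals1 (galectin-1) and Crip1, chosen after their values were seen, differed by -0.36 ± 0.10 and -0.29 ± 0.08. The mean level of the list was highest on NOD ires array 1, at 8.99, and lay between 8.35 and 8.81 on the other 7. Without that array the NOD median was -0.08. Without B6 ires array 1 the B6 median was -0.33, and without B6 ires array 2 it was 0.04.

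Helper cytokines and lineage regulators had a median of -0.10 over both backgrounds, with none called. In that fit 0 of the 12 tested members were above 0 (50.4% of all genes). In B6 alone 5 of the 12 were above 0 (51.9% of all genes), and in NOD 0 were (49.7%). The mean level of the list was highest on NOD ires array 1, at 7.40 against 6.96 to 7.24 on the other 7. Rora, a nuclear receptor of type 17 helper cells and innate lymphoid cells, was at 0.03 in B6 and -0.59 ± 0.15 in NOD. Ccr6, a chemokine receptor of type 17 helper cells and memory cells, was at -0.61 ± 0.15 in B6 and -0.11 in NOD. Cell cycle genes had a median of -0.13, with 1 of 23 above 0 (50.4% of all genes) and none called. Ccna2, cyclin A, differed by -0.41 ± 0.12 and Top2a, the topoisomerase of dividing cells, by -0.36 ± 0.18. The B6 median of this list was 0.06 without B6 fusion array 1 and -0.33 without B6 fusion array 2. Genes of naive T cells had a median of 0.01 and those of T cell receptor signalling 0.01, and neither list had a called member or a member with an unadjusted p under 0.05 over both backgrounds. Of these, Dapl1, a gene high in naive cells, was at -0.10 in B6 and 0.51 ± 0.12 in NOD (adjusted p 0.966). For immediate-early genes the median was -0.03, with Jun at -0.35 ± 0.19. For HIF-1 and glycolysis genes it was 0.00, with Slc2a3, a glucose transporter, at -0.17 ± 0.09.

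Among single genes over both backgrounds, the smallest p was that of Ccr4, a chemokine receptor of skin-homing and type 2 helper cells. Its log2 values in fusion were 6.78 and 7.18 in B6 and 6.93 and 7.12 in NOD. In ires they were 7.70 and 7.80 in B6 and 8.18 and 7.39 in NOD. All 4 fusion arrays were therefore below all 4 ires arrays. The difference was -0.76 ± 0.15, with an adjusted p of 0.852, with -0.77 in B6 and -0.76 in NOD, which were 0.01 ± 0.31 apart. Galnt10, an enzyme that starts O-linked glycan chains, differed by -0.41 ± 0.08 (adjusted p 0.852). Anxa1, described above, was also among the 12 with the smallest p. The other genes among the 12 with the smallest p, all with an adjusted p of 0.999, were 5 lower in fusion, by -0.40 to -0.30, and 4 higher, by 0.37 to 0.58. Lower were H2bc3, a histone, Slc28a2b, of the nucleoside transporters, Cnr2, a cannabinoid receptor, Fah, of tyrosine breakdown, and St3gal5, of ganglioside synthesis. Higher were Tent5a, a poly(A) polymerase, Ms4a4c, a membrane protein of lymphocytes, Cdk5rap1, which modifies mitochondrial transfer RNA, and Gzmb, the protease granzyme B. Fah passed the filter on the NOD ires arrays alone, and Gzmb on B6 fusion array 1 and NOD fusion array 2 alone. Both were admitted through the line where they are high, so their fitted values are a description. Within each background the lines did not overlap for these 12 genes, which were chosen by a p that favours such genes. The share of all genes was 1.52% with fusion higher and 2.19% with fusion lower.

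Foxp3 itself did not separate the lines in Tconv. It had 7.09 and 7.06 in B6 fusion, 7.40 and 7.01 in B6 ires, 7.12 and 8.18 in NOD fusion and 7.57 and 7.68 in NOD ires. The highest of these was NOD fusion array 2, and the difference was -0.05 ± 0.18. None of the other Treg genes and regulators followed here was called. Il2ra, the alpha chain of the receptor for interleukin-2, was above the filter on 2 arrays and at -0.07 ± 0.24, Ctla4, an inhibitory receptor, at 0.33 ± 0.20, and Ikzf2, the transcription factor Helios, at 0.30 ± 0.14. Irf4 was at -0.19 ± 0.10, Prdm1 at -0.05 ± 0.11 and Hif1a at 0.05 ± 0.11, all 3 being transcription factors of effector T cells. The 27 tested genes of the Treg list had a median of -0.01, with none called. In NOD the median was 0.04, with 17 of 27 above 0 (49.7% of all genes). Of the 27, 5 had an unadjusted p under 0.05 on the higher side (1.52% of all genes). NOD fusion array 2, which had the highest summed Treg markers, also had the highest mean level of this list, 7.31 against 6.94 to 7.20 on the other 7. Without that array the NOD median was still 0.04, with 15 of 27 above 0. Without NOD fusion array 1 the NOD median was 0.16. Gzmb, which is also on this list, had the largest fitted difference in it, 0.57 ± 0.15. It passed the filter on B6 fusion array 1 and NOD fusion array 2 alone, in the line where it is high, so this is a description. Gzmb is counted in the 17 above, so that count includes a member admitted in this way.

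Genes next to Foxp3 on the X chromosome were followed because the reporter alleles differ at that locus. The 23 tested neighbours had a median of -0.03, and none was called. Ccdc22, the next gene after Foxp3 and a factor of endosomal sorting, had 7.71 and 7.89 in B6 fusion, 8.12 and 8.22 in B6 ires, 7.90 and 8.06 in NOD fusion and 7.80 and 7.97 in NOD ires. Its difference was -0.37 ± 0.12 in B6 and 0.09 ± 0.12 in NOD (adjusted p 1.00 in both). In NOD Treg, in contrast, Ccdc22 rose by 1.26 ± 0.13 (adjusted p 5.05e-05). The difference between the cell types was 1.17 ± 0.18 in NOD (adjusted p 0.0435, with 0.00802% of genes called in that test) and 0.85 ± 0.18 in B6 (adjusted p 0.213). The NOD call ended without any 1 of the 8 NOD arrays (adjusted p 0.086 to 0.333). Plp2, a membrane protein and the other gene of this list with the largest difference, was at -0.20 ± 0.09.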

How the data were processed

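RNA was hybridised to Affymetrix arrays, 16 in all. The deposited values are intensities, which the authors made with Affymetrix Power Tools and RMA, per the submitters' processing notes. Versions and genome build: not given in the sources used here. Log2 was taken with no further normalization. Of 25108 probe sets, 21157 had 1 gene symbol, 1341 several and 2610 none; genes with several probe sets (906) were represented by the one with the highest mean, and 19531 genes remained. Genes above the 40th percentile (log2 6.05) on at least 2 of the 8 Tconv arrays were tested (12472).

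The line difference was fitted with limma 3.58.1 in R 4.3.3, with lmFit and eBayes and Benjamini-Hochberg adjustment over all genes tested. The fit over both backgrounds held background as a block (5 residual degrees of freedom), and the fits by background used the 4 group means (4). Differences are fusion minus ires with the standard error. The fits were run on simulated data with 200 of 12472 genes changed. A log2 change of 1 was called for 99% to 100% of the changed genes. A change of 0.5 was called for 91% over both backgrounds, 45% in B6 and 39% in NOD. Between 11 and 15 unchanged genes were called. Noise was drawn for each gene separately, so lists whose members move together were not simulated. Precision is limited by the number of arrays.

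The comparison, the gene lists and the named genes were chosen with earlier results of these data known. Named were genes called in any Tconv comparison, the 12 with the smallest p over both backgrounds, the 2 with the largest difference in each list, and a fixed set of Treg genes and genes of the reporter lines; exceptions are marked in the text. Alternatives varied the filter, scaling, variance model, probe set rule, samples fitted and replicate block, and left out each array. Promoter windows came from RefSeq (GRCm38.p6).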

Additional observations from a re-analysis of the deposited data

Results flagged for a closer look

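The line difference in Tconv differed between the backgrounds for Ctse, where NOD minus B6 was -3.55 ± 0.23 (log2, adjusted p 3.44e-05, limma), and the call held in all 19 alternative fits. For Kcnma1 the fitted NOD minus B6 was 6.03, but 6 of the 8 arrays lay under the filter and the gene was admitted through the 2 NOD fusion arrays, so this is a description and not an exact size. The line difference of Ccdc22 in NOD differed between Treg and Tconv by 1.17 ± 0.18 (adjusted p 0.0435), a call that held in 6 of 16 alternative fits. No group held enough arrays to look for a single outlying array.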

How the results depend on the processing

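The genes called over both backgrounds numbered 0, and 3 with the 4 Tconv group means and with all 16 arrays. In B6 they numbered 3, against 5 with trend and robust variances, 1 when the fit held the compared groups alone and 1 to 3 when each array was left out. In NOD they numbered 5, against 9 with the filter at the 60th percentile, 8 with median centring, 3 with quantile normalization, 9 with trend and robust variances, 1 when the fit held the compared groups alone and 2 to 11 when each array was left out (2 without NOD fusion 1, 11 without NOD ires 2). The difference between the backgrounds had 2 calls, against 8 with median centring, 5 each with the 60th percentile filter, trend and robust variances, the mean of probe sets and all 16 arrays, and 2 to 7 when each array was left out. The causes were not tested. With the replicate number as a block the calls were 0 over both backgrounds, 2 in B6, 6 in NOD and 2 between them. The numbers are not shown to pair the arrays, since deviations of same-numbered arrays correlated at 0.371 in B6 and -0.176 in NOD. With the NOD pairing crossed, an alternative chosen after seeing the data, there were 0 calls over both backgrounds and 3 in NOD. When each array was left out, the difference over both backgrounds, none of them called, ran from -0.28 to 0.14 for Foxp3, -0.33 to 0.15 for Il2ra, -0.13 to 0.0801 for Prdm1 and -0.0603 to 0.13 for Hif1a.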
